A study of Rattus norvegicus with 35 samples.

Results

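Triglyceride synthesis and storage were followed through 9 genes, Gpd1, Gpam, Gpat3, Agpat2, Lpin1, Dgat1, Dgat2, Pnpla2 and Pnpla3. Their probes were found through the transcript accession, gene ID or gene name that the array files give. The Gpat3 and Pnpla3 probes carry the older names LOC305166 and LOC362972 there. This gave 13 of 41012 probes. All 9 genes passed the filter on dim probes, among 16157 genes in all. The tissue was the left mammary gland of the abdomen, taken at postnatal day 21 from 35 female offspring of Sprague-Dawley rats and hybridised to 1-colour Agilent whole-genome arrays. Their dams had received bisphenol A (BPA), a plastics monomer that binds oestrogen receptors, by gavage from gestational day 10 to 21. There were 7 groups of 5 arrays: the negative control, BPA at 25 µg/kg/day (BPA25), BPA at 250 µg/kg/day (BPA250), and both doses again with genistein, a soy isoflavone, at 250 mg/kg chow (about 5.5 mg/kg/day) or with indole-3-carbinol (I3C), a compound of cruciferous vegetables, at 2000 mg/kg chow (about 45.0 mg/kg/day). Neither diet was given without BPA, and the diets are set against the same BPA dose alone. The offspring came from different litters, which the labels do not assign to arrays.

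The pathway starts with glycerol 3-phosphate, to which acyl chains are added one after another before the phosphate is removed and the last chain is attached. The product is packed into lipid droplets, from which lipases release the fatty acids again. The mammary gland of a young rat is a fat pad into which the ducts grow, so these genes are read here largely against a background of adipocytes. All 8 white adipocyte markers, among them Adipoq and Plin1, were well above background on all 35 arrays, and their mean level per group ran from 4.97 to 5.44. Levels are log2 signals relative to the 75th percentile of the array, differences are given on the log2 scale ± SE from limma, and a gene passed when its p, adjusted by the Benjamini-Hochberg method over all 16157 genes, was under 0.05. In whole tissue, fewer cells of a type and less RNA per cell cannot be told apart.

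No member passed in any of the 9 comparisons or in the 4 of combined groups with control. Their directions by group were as follows. With BPA25 alone, 8 of the 9 were higher than in controls, with a median difference of 0.67. When genistein was added to BPA25, 8 of 9 were lower, with a median of -0.64. With I3C added to BPA250, 7 of 9 were higher, with a median of 0.73. The median over all genes was 0.01, 0.03 and 0.24 in these comparisons. Over all genes 52.1%, 53.7% and 69.8% were higher. Without the 4 arrays of slide 3, described below, BPA25 had 9 of 9 higher with a median of 0.73, and I3C with BPA250 had 6 of 9 higher with a median of 0.29. With another background correction (normexp) BPA25 had 6 of 9 higher, with a median of 0.20, and genistein with BPA25 had a median of -0.30. With scan day as a block the genistein median was -0.36. Gpat3, which passed the filter on dim probes only through BPA25, is counted here and in all comparisons with BPA25 below. With a filter that asked for all 5 arrays of a group, Gpat3 was left out. BPA25 then had 7 of 8 higher with a median of 0.46, and genistein with BPA25 had 1 of 8 higher with -0.66. These are counts of values that did not pass, and the BPA25 arrays enter both the first and the second comparison.

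**Figure D1:**
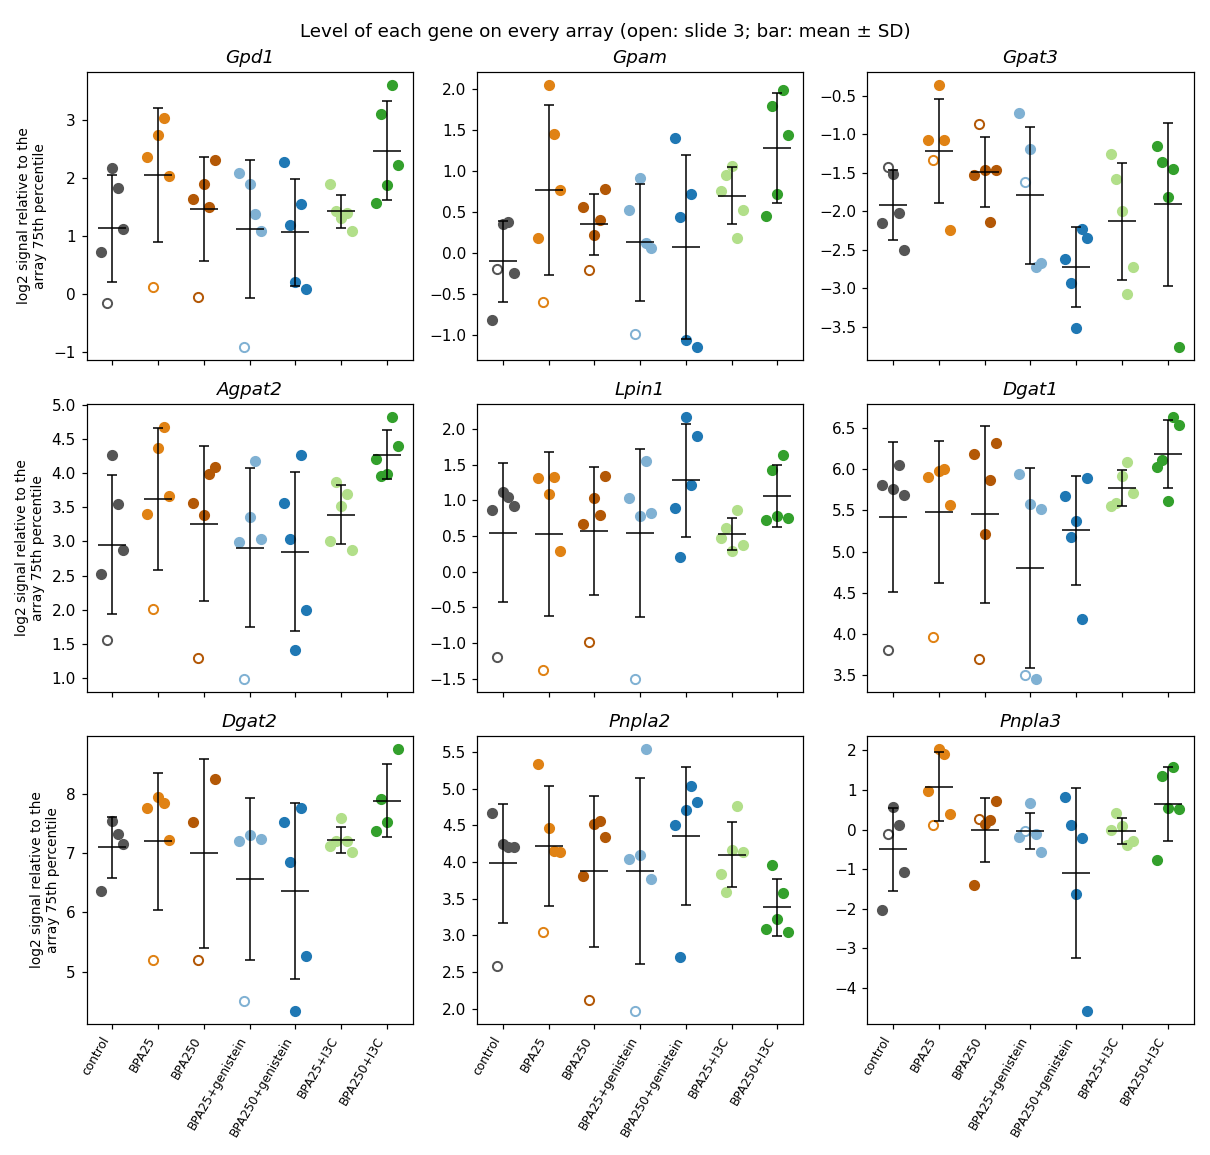
Level of each of the 9 genes (log2 signal relative to the array's 75th percentile, vertical axis) on every array of the 7 groups. Open circles are the 4 arrays of slide 3 and bars are group means with SD. The slide 3 arrays lie lowest in their groups for Lpin1 and Pnpla2, and BPA250+I3C holds the highest group mean of Gpd1, Gpam, Agpat2, Dgat1 and Dgat2.

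Several arrays stood apart, which bears on all values below. The arrays lay on 10 slides scanned on 5 days, and over all genes slide took 61.4% of the variance against 16.4% for group. On slide 3, which held replicate 2 of control, BPA25, BPA250 and BPA25+genistein, 93.5% to 96.5% of probes were well above background, against 32.5% to 72.6% elsewhere. Among 2118 genes with several probes, the difference between 2 probes was off by over 2 (log2) for 10.4% to 17.4% of genes on slide 3. It was off for 11.7% on BPA25+genistein replicate 4 and 11.1% on BPA250+genistein replicate 4, and for 0.1% to 5.5% on the other 29 arrays. The mean level of 9 skeletal muscle markers also moved with the groups, from 3.98 in controls and 4.06 with BPA25 to 1.21 with BPA250, -0.31 with BPA25+genistein, -0.18 with BPA250+genistein, 0.31 with BPA25+I3C and -0.97 with BPA250+I3C. Other cell types' markers moved too. Of 6 luminal epithelial markers, 4 had an unadjusted limma p under 0.05 in BPA25+I3C against control (1.57% of all genes), with a list median difference of -1.62. All 4 T cell markers measured were higher when genistein was added to BPA250 (58% of all genes), with a median of 1.5. Both erythroid markers measured were higher when I3C was added to BPA250 (69.8% of all genes), with a median of 1.91. Each of these lists is shown for the comparison where its median lay farthest from 0. None of these luminal epithelial, T cell and erythroid markers passed after adjustment in these comparisons. Of the 9 muscle markers, 1 passed, as lower, when I3C was added to BPA25, where 0.0124% of all genes passed. The part of other cell types in the results was not tested. Values at missing spots were filled with the group mean for these shares and means.

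Gpd1 reduces dihydroxyacetone phosphate to glycerol 3-phosphate, the backbone of the pathway. Its level in the 5 controls was 0.72, -0.15, 2.17, 1.83 and 1.11, and with BPA25 it was 2.35, 0.11, 2.73, 3.03 and 2.03. These ranges overlapped, with the slide 3 array lowest in both groups. The difference was 0.92 ± 0.56 (limma adjusted p = 1), and Gpd1 was higher with BPA25 on 4 of the 4 slides that held both groups, by 0.26 to 1.63. Without the slide 3 array of BPA25 the difference was 1.40, and without that of control 0.59. With BPA250 the 5 values were 1.63, -0.05, 1.89, 1.5 and 2.31, a difference from control of 0.32 ± 0.56. Genistein with BPA25 gave 2.08, -0.91, 1.89, 1.37 and 1.09, or -0.94 ± 0.56 against BPA25. Genistein with BPA250 gave 2.27, 1.19, 0.20, 1.55 and 0.08, where replicates 3 and 5 were lowest. Both slides that held this group and BPA250 carried these same replicates 3 and 5, so they are not separate support. There Gpd1 was lower with genistein, by -2.23 to -1.70, while over all arrays the difference was -0.40 ± 0.56. With I3C the values were 1.90, 1.43, 1.31, 1.39 and 1.09 at the lower BPA dose and 1.57, 3.1, 1.87, 3.60 and 2.22 at the higher. I3C thus went with a difference of -0.62 ± 0.56 at BPA25 and of 1.02 ± 0.56 at BPA250. Without the slide 3 array of each BPA group these were -1.11 and 0.64. The difference between these effects was 1.64 ± 0.79 (limma adjusted p = 1).

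Gpam is the mitochondrial acyltransferase that adds the first acyl chain. It read -0.81, -0.19, 0.36, 0.38 and -0.24 in controls, and 0.45, 1.79, 0.72, 1.99 and 1.44 with BPA250+I3C. Every BPA250+I3C array was above every control, by 1.38 ± 0.45 on average (limma adjusted p = 0.592). Gpam was the only member whose ranges did not overlap in that direction, as did 0.662% of all genes. Within each of 3 slides with arrays of both, the difference was 1.26 to 1.68. Against BPA250 alone, at 0.56, -0.20, 0.22, 0.40 and 0.78, the difference was 0.93 ± 0.45, and these ranges overlapped. With BPA25 Gpam read 0.18, -0.59, 2.05, 1.45 and 0.77, which was 0.87 ± 0.45 above controls and higher on 3 of 4 shared slides. With BPA250+genistein it read 1.40, 0.44, -1.06, 0.72 and -1.14, with the same replicates 3 and 5 lowest.

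Gpat3 is an acyltransferase of the endoplasmic reticulum that carries out the same first step. Its probe was dim. With BPA250 it read -1.53, -0.87, -1.46, -2.14 and -1.46 and was well above background on 2 of 5 arrays. With BPA250+genistein it read -2.62, -2.93, -3.52, -2.23 and -2.35 and was well above background on 0 of 5. All 5 of these arrays lay below all 5 BPA250 arrays, as did 0.173% of genes in that direction. The group means were -1.49 and -2.73. Neither group was above background throughout, so the fitted differences that follow are not read as sizes of a change. The fitted difference was -1.24 ± 0.44 (limma adjusted p = 1). With slide as a random block it was -1.42 ± 0.34 with an adjusted p of 0.0449, the only call of a member under any alternative. With normexp background correction it was -0.18 ± 0.27. Gpat3 passed the filter on dim probes only through BPA25, where 4 of 5 arrays were well above background, against 0 to 3 in the other groups. Its differences from BPA25 therefore carry the choice made by the filter, and are given only as values: -0.91 ± 0.44 with I3C added to BPA25, and 0.70 ± 0.44 for BPA25 against control.

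Agpat2 adds the second acyl chain, and its loss in people causes a lack of fat tissue. It read 2.52, 1.55, 4.26, 3.54 and 2.88 in controls. With BPA250+I3C it read 4.21, 3.95, 3.98, 4.82 and 4.39, a narrow range that still overlapped that of the controls. The difference was 1.32 ± 0.58 (limma adjusted p = 0.917) and lay between 1.28 and 1.69 on 3 shared slides. With BPA250+genistein it read 3.56, 3.03, 1.41, 4.27 and 2.00. That group differed from BPA250 by -0.41 ± 0.58 over all arrays. Without the 6 arrays whose probe pairs disagreed the difference was -1.26 ± 0.39 (limma adjusted p = 0.0861). That setting dropped the highest BPA250+genistein array, at 4.27, and the lowest BPA250 array, at 1.29. On both slides shared by these groups, which carried replicates 3 and 5 of BPA250+genistein, the difference was -2.09 to -1.98.

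Lpin1 removes the phosphate, and its protein also acts with transcription factors in the nucleus. It read 0.87, -1.20, 1.12, 1.05 and 0.92 in controls and 0.89, 0.21, 2.17, 1.21 and 1.91 with BPA250+genistein. Replicates 3 and 5 of that group, low for Gpd1, Gpam and Agpat2, were here the highest. Genistein added to BPA250 gave 0.70 ± 0.53, and the other comparisons of single treatments lay between -0.02 and 0.49. A second Lpin1 probe went against the first on slide 3. There the first minus the second was -1.76 to -1.13, and on the 29 arrays with few discordant pairs it was 0.08 to 2.25. By its second probe Lpin1 differed by 0.76 ± 0.34 with genistein added to BPA250 (limma adjusted p = 1). For BPA250+genistein against control the second probe gave 1.24 ± 0.34 (limma adjusted p = 0.982) and the first 0.73 ± 0.53.

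Dgat1 and Dgat2 are unrelated enzymes that both attach the last acyl chain. Probes of these genes are shown because pairs of them disagreed on the same 2 arrays. Coordinates are those of the array files, on rat build rn3, and the probes are written 5′ to 3′ with no part in capitals.
Dgat1 A_44_P515326, chr7:114586511-114586570, minus strand: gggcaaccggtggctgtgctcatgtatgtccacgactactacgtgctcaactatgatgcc
Dgat1 A_44_P515334, chr7:114587265-114587324, minus strand: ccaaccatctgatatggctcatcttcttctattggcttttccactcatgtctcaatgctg
Dgat2 A_43_P15649, chr1:156537805-156537864, minus strand: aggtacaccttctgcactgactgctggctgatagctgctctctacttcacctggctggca
Dgat2 A_44_P180012, chr1:156529192-156529251, minus strand: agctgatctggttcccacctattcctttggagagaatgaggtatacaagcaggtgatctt
The gene names and positions are those of the array files; gene models of that build were not used here. The first Dgat1 probe exceeded the second by 1.60 to 2.57 on 33 arrays, slide 3 included. On replicate 4 of BPA25+genistein and of BPA250+genistein it was below it, by -1.51 and -0.36. For Dgat2 the first probe shown minus the second was -1.90 to -1.11 on the 29 arrays with few discordant pairs and -1.36 to -1.19 on slide 3. On the same 2 arrays it was -6.06 and -7.01. There A_43_P15649 read -1.52 and -1.85. By that probe, these 2 arrays included, Dgat2 differed by -1.46 ± 0.71 with genistein at BPA25 and -2.01 ± 0.71 at BPA250. By A_44_P180012 the differences were -0.61 ± 0.63 and -0.78 ± 0.63.

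**Figure D2:**
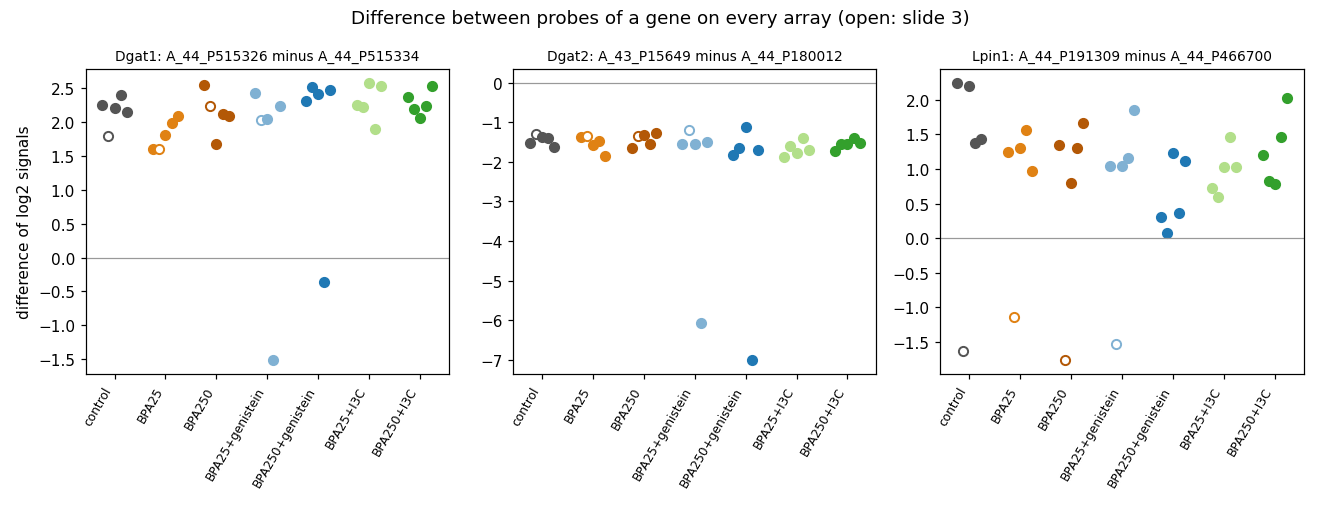
Difference of log2 signals between 2 probes of Dgat1, Dgat2 and Lpin1 (vertical axis) on every array of the 7 groups, with slide 3 as open circles. Replicate 4 of BPA25+genistein and of BPA250+genistein stand apart for Dgat1 and Dgat2, and slide 3 stands apart for Lpin1.

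Dgat1, by its brighter probe, read 5.81, 3.81, 5.76, 6.05 and 5.69 in controls and 6.02, 6.11, 5.61, 6.63 and 6.53 with BPA250+I3C. The ranges overlapped, with a difference of 0.76 ± 0.51, and Dgat1 was higher on 3 of 3 shared slides. Without the control array on slide 3 the difference was 0.35. With BPA25+genistein it read 5.94, 3.50, 5.58, 3.46 and 5.51, where the lowest were the slide 3 array and replicate 4, on which the probes disagreed. Its second probe read 4.97 on that replicate, the highest of its group. Dgat2, by another and brighter probe, had 5 values marked as outliers by the scanner software and left out, so BPA250 rested on 3 arrays, at 7.53, 5.20 and 8.26. The remaining 4 controls read 6.36, 7.54, 7.33 and 7.16. BPA250 differed from control by -0.10 ± 0.77, and without its slide 3 array by 0.79, so the direction rests on that array. With BPA250+genistein Dgat2 read 7.53, 6.86, 4.34, 7.77 and 5.27, again with replicates 3 and 5 lowest. Without the 6 discordant arrays that group was below BPA250 by -1.89 ± 0.56 (limma adjusted p = 0.0794). That setting left 2 BPA250 values and dropped replicate 4 of BPA250+genistein, at 7.77 its highest. On that replicate this probe exceeded A_44_P180012 by 2.62, within the 2.60 to 4.30 of the arrays with few discordant pairs.

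Pnpla2, the lipase that removes the first fatty acid from stored triglyceride, went the other way with BPA250+I3C. It read 4.67, 2.58, 4.25, 4.21 and 4.20 in controls and 3.09, 3.96, 3.22, 3.58 and 3.05 with BPA250+I3C, a difference of -0.60 ± 0.52 (limma adjusted p = 0.917). All 3 shared slides had it lower with BPA250+I3C, from -1.58 to -0.63. Without slide 3 the difference was -0.95 ± 0.38, with the 4 controls at 4.20 to 4.67 and the 5 BPA250+I3C arrays at 3.05 to 3.96. The share of all genes with separate ranges was not counted without slide 3, so no weight is put on these ranges. Elsewhere its differences between treatments were small, from -0.49 to 0.48 for single treatments. With BPA250+genistein it read 4.50, 2.71, 4.71, 5.03 and 4.82, and replicates 3 and 5 were not low.

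Pnpla3, known as adiponutrin, is a lipid droplet protein whose transcript responds to feeding. It showed the largest difference of any member in the single comparisons. Controls read -2.03, -0.11, 0.58, 0.12 and -1.06, and BPA25 read 0.96, 0.11, 2.03, 1.90 and 0.39, higher by 1.58 ± 0.65 (limma adjusted p = 1). BPA25 was higher on 4 of 4 shared slides, by 0.22 to 2.99. With BPA250 Pnpla3 read -1.40, 0.26, 0.13, 0.23 and 0.73, and the difference from control was 0.49 ± 0.65. Genistein and I3C at BPA25 gave -1.12 ± 0.65 and -1.11 ± 0.65 against BPA25. With BPA250+genistein it read 0.82, 0.11, -1.62, -0.22 and -4.57, the last not above background. Without that replicate the group stood 0.27 above controls, in place of -0.60 ± 0.65. A separate probe described in the array files as adiponutrin, outside the naming rule, read -2.03, -2.12, 0.85, 0.42 and -1.67 in controls and -0.21, -2.29, 1.90, 1.52 and 0.50 with BPA25. Its difference was 1.19 ± 0.79, and with BPA250+I3C it stood 1.82 ± 0.79 above controls (limma adjusted p = 0.926 over all probes).

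**Figure D3:**
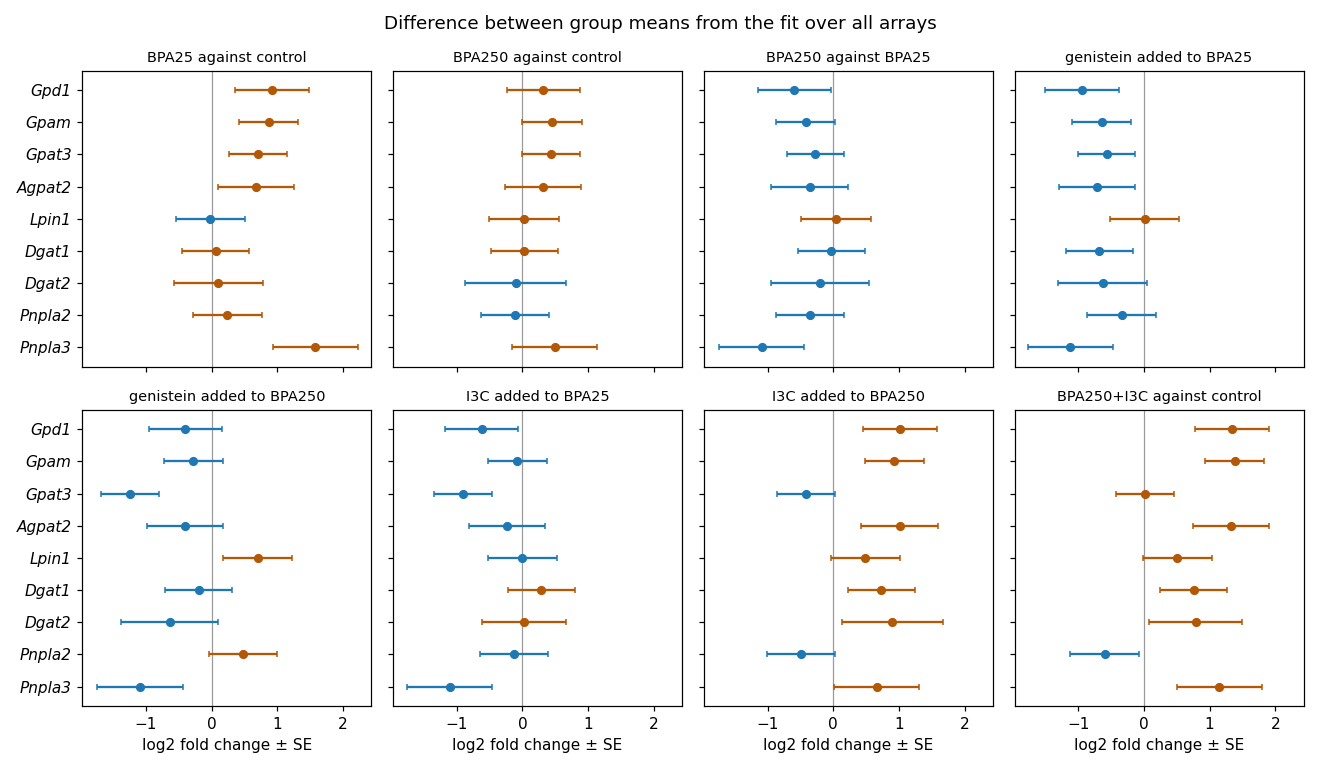
Differences between groups (log2 fold change with SE, horizontal axis) for the 9 genes in 8 comparisons, with higher values in orange and lower in blue. With BPA250+I3C against control, Gpam stands at 1.38 and Pnpla2 at -0.60.

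Counted by comparison, by the probe that stands for each gene, the members stood against the following background. A further probe of Dgat2, A_43_P15649, had an unadjusted limma p under 0.05 when genistein was added at either BPA dose. Its values include replicate 4 of both genistein groups, where it departed from A_44_P180012. By A_44_P180012 the unadjusted limma p was 0.342 at BPA25 and 0.226 at BPA250. A further Lpin1 probe had such a p under 0.05 when genistein was added to BPA250. For BPA250+genistein against control, A_43_P15649 and this Lpin1 probe did too. The share over all probes was not counted. With BPA25 against control, 0 of 9 passed, as did 0% of all genes. For 1 of 9, Pnpla3, the unadjusted p was under 0.05 (2.01% of genes), and the ranges overlapped for 9 of 9 (0.0743% of genes lay wholly higher and 0.173% wholly lower). With BPA250 against control, 0 of 9 passed (0% of genes) and 0 of 9 had an unadjusted p under 0.05 (0.99%). Of these 7 were higher, with a median of 0.31, and 0 had separate ranges (0.0557% of genes higher, 0.223% lower). Between the BPA doses 0 of 9 passed (0%), 0 had an unadjusted p under 0.05 (1.68%), and 8 of 9 were lower at the higher dose, with a median of -0.35 and ranges that overlapped for 9 of 9 (0.13% of genes higher, 0.0743% lower). Over all genes 44.1% were higher. Fitting slide as a fixed block moved the median to -0.09, and scan day as a block to -0.03 with 3 of 9 higher. Genistein with BPA25 gave 0 of 9 passing (0.00619% of genes), 0 with an unadjusted p under 0.05 (4.73%) and 0 with separate ranges (0.161% higher, 0.13% lower). Genistein with BPA250 gave 0 of 9 passing (0%), 7 lower, and 1 with an unadjusted p under 0.05 (4.21%), Gpat3, whose ranges were separate (0.272% of genes higher, 0.173% lower). I3C with BPA25 gave 0 of 9 passing (0.0124%), 1 with an unadjusted p under 0.05 (4.33%), again Gpat3, which passed the filter only through BPA25, and 0 with separate ranges (0.501% higher, 0.229% lower). The median was -0.13 with 2 of 9 higher, but 0.17 with 6 of 9 higher under normexp and -0.48 with 0 of 9 higher without slide 3. I3C with BPA250 gave 0 of 9 passing (0%), 1 with an unadjusted p under 0.05 (4.33%), Gpam, and 0 with separate ranges (0.842% higher, 0.26% lower).

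The genistein effect differed between BPA doses for 0 of 9 members (0% of genes), with 0 unadjusted p under 0.05 (1.16%). For the I3C effect 0 of 9 passed (0%), 1 had an unadjusted p under 0.05 (3.16%), Gpd1, and for 8 of 9 the signed difference was higher at BPA250 than at BPA25, as for 59.2% of all genes. Against control, BPA25+genistein gave 0 of 9 passing (0%), 0 with an unadjusted p under 0.05 (1.68%) and 0 with separate ranges (0.0681% higher, 0.0433% lower). BPA250+genistein gave 0 of 9 (0%), 0 by the probe that stands for the gene with an unadjusted p under 0.05 (4.26%) and 0 with separate ranges (0.223% higher, 0.569% lower). BPA25+I3C gave 0 of 9 (0%), 0 with an unadjusted p under 0.05 (1.57%) and 0 with separate ranges (0.0557% higher, 0.173% lower). BPA250+I3C gave 0 of 9 (0%), 3 with an unadjusted p under 0.05 (3.63%), Gpd1, Gpam and Agpat2, and 1 with separate ranges, Gpam (0.662% higher, 0.724% lower). Across all 7 groups 0 of 9 passed (0.00619% of genes), and 1 had an unadjusted limma p under 0.05 (4.04%), Pnpla3 at 0.0466.

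Beyond the 9 members, 45 of 55 further genes of lipid metabolism were measured and 0 passed in any comparison. Of 14 measured genes of fatty acid uptake and synthesis, 13 were higher with BPA25 than in controls, with a median of 0.71. When genistein was added to BPA25, 13 were lower, with a median of -0.66. Over all genes 52.1% and 53.7% were higher in these comparisons, and the same BPA25 arrays enter both. Acss2, which makes acetyl-CoA from acetate, differed by 1.07 ± 0.36 with BPA25, and Me1, which supplies NADPH, by 1.41 ± 0.67 (limma adjusted p = 1 for both). With BPA250+I3C against control all 14 were at or above control, where 69.4% of all genes were higher, led by Me1 at 2.04 ± 0.67 (limma adjusted p = 0.581). Of the 13 measured genes of glycerol 3-phosphate supply and other acyl steps, 11 were higher when I3C was added to BPA250. In that comparison 69.8% of all genes were higher. Gk, glycerol kinase, well above background on 3 of 5 BPA250 arrays, differed there by 1.28 ± 0.37 and Acsl1, which activates fatty acids, by 1.11 ± 0.47 (limma adjusted p = 0.766 for both). Fitm1, a droplet assembly protein made mainly in muscle, was well above background on 5 of 5 controls and 1 of 5 BPA250+I3C arrays, so no size is given for its difference. The muscle markers averaged 3.98 and -0.97 in these groups. Scd, which desaturates fatty acids, differed by 1.41 ± 0.74 with BPA25 against control. When I3C was added, Scd differed by -1.15 ± 0.74 at BPA25 and by 1.64 ± 0.74 at BPA250. The signed difference between these I3C effects, BPA250 minus BPA25, was 2.79 ± 1.05 (limma adjusted p = 1). Scd2, a relative of it, differed by -2.47 ± 0.94 when genistein was added to BPA25 (limma adjusted p = 0.96). Scd2 was well above background on 4 of 5 BPA25+genistein arrays, with an SD of 2.93 there and 1.13 with BPA25. With BPA250+genistein against control, Mlxipl, a carbohydrate-responsive transcription factor, stood at 0.90 ± 0.35 and G0s2, an inhibitor of Pnpla2, at -1.10 ± 0.53 (limma adjusted p = 0.988 and 0.999). Acss2 differed by -0.95 ± 0.36 when I3C was added to BPA25 (limma adjusted p = 0.984). These lists overlap in part with the adipocyte markers, and the array values of the lists share the slides described above.

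Some members varied together from array to array and others did not. Over the 31 arrays off slide 3, Gpd1 and Gpam had a Pearson r of 0.86 (Spearman 0.72), Gpd1 and Pnpla3 of 0.85 (0.85), and Gpam and Pnpla3 of 0.84 (0.73). The permutation p of each Pearson r was 1e-05, the smallest that 100000 permutations can give, and 4e-05 after adjustment over 36 pairs. Without the 2 arrays farthest from the median these r were 0.80, 0.85 and 0.81. Within the 4 scan days with at least 6 such arrays, r was 0.80 to 0.92 for Gpd1 with Gpam and 0.90 to 0.94 for Gpd1 with Pnpla3. Over the 27 of these arrays with a Dgat2 value, Agpat2 and Dgat2 had an r of 0.88. Pnpla2 had an r of -0.36 with Gpam and -0.18 with Gpd1, and 0.51 with Lpin1. Arrays share slides and groups, so they are not fully independent and these p-values are too small.

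**Figure D4:**
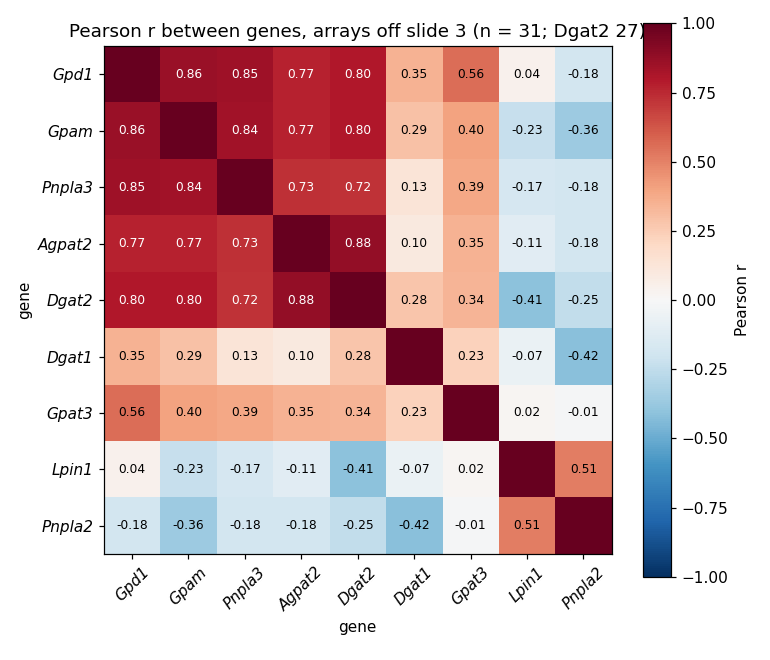
Pearson r between each pair of the 9 genes over the arrays off slide 3, 31 arrays or, for Dgat2, 27, with the scale from -1 to 1. Gpd1, Gpam, Pnpla3, Agpat2 and Dgat2 form a block with r of 0.72 to 0.88, and Pnpla2 has an r below 0 with all of them.

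Promoters of Gpam and Pnpla3, which varied together, are shown as the 250 bases before the RefSeq gene start on GRCr8, 5′ to 3′ along the gene. Capitals mark matches to CCAAT on either strand, the core of the NF-Y site.
Gpam, chr1:264175912-264176161, minus strand: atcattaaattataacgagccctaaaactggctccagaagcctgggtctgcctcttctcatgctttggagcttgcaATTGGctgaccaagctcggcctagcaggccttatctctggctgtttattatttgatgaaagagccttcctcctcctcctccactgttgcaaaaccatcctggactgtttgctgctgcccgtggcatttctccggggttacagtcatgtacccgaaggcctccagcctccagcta
Pnpla3, chr7:117173278-117173527, plus strand: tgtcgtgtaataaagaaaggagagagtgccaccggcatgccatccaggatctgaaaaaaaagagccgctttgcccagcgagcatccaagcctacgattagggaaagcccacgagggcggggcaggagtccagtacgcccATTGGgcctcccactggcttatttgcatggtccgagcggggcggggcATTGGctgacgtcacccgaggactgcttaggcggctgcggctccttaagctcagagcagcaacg
Of 6 members with a promoter in the table, 3 held this motif, Gpam, Lpin1 and Pnpla3, as did 34.0% of 33469 promoters. The E-box CACGTG was in 0 of the 6 and in 5.59% of promoters. A match is a description of these letters only.

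By their level over all 35 arrays, as a description and with missing values filled by group means, the genes most like Gpd1 were Nsdhl and Slc25a1, each with a Pearson r of 0.93, and 0.88 without slide 3. Dgat1 was most like Bcl7b, with an r of 0.97, and Vps28, with 0.96. Pnpla2 was most like Lamb2, with an r of 0.91, and Agpat2 like Tmem254, with 0.95.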

How the data were processed

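Signal intensities were read by the authors with Agilent Feature Extraction 9.5.3.1 from 35 arrays, per the file headers, as processed green signals with background subtracted; the flags for signal above background, saturation and outliers were deposited with them. A deposited table of the authors' log2 values served as an alternative; its scaling is not given in the sources used here. The number of arrays limits the precision. From the scanner files, each array's log2 signal was taken relative to its 75th percentile over non-control spots, outlier spots were left out (920 missing gene values), and spots of a probe were averaged. A probe was kept when well above background on at least 4 of 5 arrays of a group, with at most 5 missing values, and the brightest kept probe stood for its gene. A linear model of 7 group means over 35 arrays was fitted with limma 3.58.1 (R 4.3.3), with Benjamini-Hochberg adjustment over 16157 genes at 0.05, and tested on simulated data.

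The members and lists were chosen with earlier results of these data known. All 9 members are counted in each comparison, though not each is given a value there. Of the other pathway genes, some of those with the smallest p are named. Fitm1, with the smallest p of these when genistein was added to BPA25, is described only for BPA250+I3C against control. Same-numbered arrays of compared groups deviated together in every pair for BPA25 against control (r of 0.12 to 0.91) and genistein added to BPA250 (0.23 to 0.67), and in 3 or 4 of 5 pairs in the other comparisons. For BPA25 against control, 4 of the 5 pairs shared a scan day and 3 a slide. For genistein added to BPA250 these were 5 and 2. Best matched with their own number were 4 of 10 and 6 of 10 arrays in these 2 comparisons. Nothing in the labels ties arrays to litters, so p-values measure the spread between these samples. Alternatives covered background correction, normalization, filters, probes, slide, scan day, replicate number and single arrays. Promoter sequences are from RefSeq (GRCr8), with 6 of 9 members matched.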

Additional observations from a re-analysis of the deposited data

Results flagged for a closer look

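In 62 groups of 4 or 5 arrays, 12 single values lay far below the rest of their group by Dixon's test, 9 of them on slide 3. Chance gives about 1 in 20 such groups. BPA250 had only 3 values of Dgat2 and was not tested. On slide 3 and elsewhere these were as follows. Gpat3 in BPA250+I3C replicate 5 read -3.76, with the nearest array of its group at -1.81, and lay on slide 9. Pnpla2 in BPA250+genistein replicate 2 read 2.71, with the nearest array of its group at 4.50, and lay on slide 4. Pnpla3 in BPA250 replicate 1 read -1.40, with the nearest array of its group at 0.13, and lay on slide 1. Agpat2 in BPA250 replicate 2 read 1.29, with the nearest array of its group at 3.39. Lpin1 in control replicate 2 read -1.20, with the nearest array of its group at 0.87. Lpin1 in BPA250 replicate 2 read -0.98, with the nearest array of its group at 0.67. Lpin1 in BPA25+genistein replicate 2 read -1.5, with the nearest array of its group at 0.78. Dgat1 in control replicate 2 read 3.81, with the nearest array of its group at 5.69. Dgat1 in BPA25 replicate 2 read 3.97, with the nearest array of its group at 5.57. Dgat2 in BPA25 replicate 2 read 5.20, with the nearest array of its group at 7.23. Dgat2 in BPA25+genistein replicate 2 read 4.51, with the nearest array of its group at 7.21. Pnpla2 in control replicate 2 read 2.58, with the nearest array of its group at 4.20.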

How the results depend on the processing

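Of 209 counts of members passing under alternatives other than a left-out array, 1 was above 0: genistein added to BPA250 with slide as a random block, with 1 member, Gpat3, and 76 of all genes. All 185 counts with 1 array left out were 0, and the replicate block changed no call. Without slide 3, genistein added to BPA25 gave 19 genes in place of 1, and without the 6 arrays whose probe pairs disagree, genistein added to BPA250 gave 154 in place of 0. Of 117 member differences, 73 lay within 1 SE of 0, and 59 took the other sign under at least one setting, 56 of which were among those 73. The differences of changed sign are given as log2 values with the setting in parentheses (slide and scan day as blocks, 6 arrays being those with discordant probes), and the cause was not tested. Gpd1 in genistein effect, BPA250 minus BPA25 was 0.54 as reported and -0.03 (slide fixed), -0.05 (without 6 arrays). Gpd1 in BPA25+genistein against control was -0.03 as reported and 0.13 (normexp), 0.20 (the authors' values), 0.23 (scan day), 0.15 (no slide 3), 0.23 (without 6 arrays) and -0.35 to 0.48 without 1 array. Gpd1 in BPA250+genistein against control was -0.08 as reported and 0.11 (quantile scaling), 0.05 (the authors' values), 0.19 (scan day) and -0.40 to 0.18 without 1 array. Gpd1 in BPA25+I3C against control was 0.29 as reported and -0.38 (slide fixed), -0.22 (slide random), -0.03 (no slide 3), -0.03 (without 6 arrays) and -0.03 to 0.55 without 1 array. Gpam in genistein added to BPA250 was -0.28 as reported and -0.61 to 0.02 without 1 array. Gpam in I3C added to BPA25 was -0.08 as reported and 0.18 (normexp), 0.11 (quantile scaling), 0.03 (the authors' values), 0.28 (scan day) and -0.42 to 0.24 without 1 array. Gpam in genistein effect, BPA250 minus BPA25 was 0.36 as reported and -0.33 (slide fixed), -0.12 (slide random), -0.03 (scan day). Gpam in BPA250+genistein against control was 0.17 as reported and -0.22 (slide fixed), -0.15 (slide random), -0.01 (without 6 arrays) and -0.16 to 0.47 without 1 array. Gpat3 in I3C added to BPA250 was -0.41 as reported and -0.60 to 0.05 without 1 array. Gpat3 in genistein effect, BPA250 minus BPA25 was -0.67 as reported and 0.12 (normexp). Gpat3 in BPA25+genistein against control was 0.14 as reported and -0.11 (quantile scaling), -0.14 (slide fixed), -0.09 (slide random) and -0.13 to 0.37 without 1 array. Gpat3 in BPA250+genistein against control was -0.81 as reported and 0.06 (normexp). Gpat3 in BPA25+I3C against control was -0.21 as reported and 0.05 (the authors' values) and -0.42 to 0.03 without 1 array. Gpat3 in BPA250+I3C against control was 0.02 as reported and -0.18 (slide fixed), -0.14 (slide random), -0.07 (scan day) and -0.17 to 0.48 without 1 array. Agpat2 in BPA250 against control was 0.31 as reported and -0.04 to 0.80 without 1 array. Agpat2 in BPA250 against BPA25 was -0.36 as reported and -0.77 to 0.13 without 1 array. Agpat2 in I3C added to BPA25 was -0.23 as reported and 0.17 (normexp) and -0.63 to 0.03 without 1 array. Agpat2 in genistein effect, BPA250 minus BPA25 was 0.30 as reported and -0.45 (slide fixed), -0.25 (slide random), -0.04 (scan day), -0.27 (no slide 3), -0.36 (without 6 arrays) and -0.19 to 0.71 without 1 array. Agpat2 in BPA25+genistein against control was -0.04 as reported and 0.25 (slide fixed), 0.18 (slide random), 0.30 (scan day), 0.09 (no slide 3) and -0.39 to 0.44 without 1 array. Agpat2 in BPA250+genistein against control was -0.10 as reported and 0.24 (scan day) and -0.45 to 0.26 without 1 array. Lpin1 in BPA25 against control was -0.02 as reported and 0.11 (normexp), 0.04 (the authors' values), 0.02 (no slide 3), 0.02 (without 6 arrays) and -0.46 to 0.45 without 1 array. Lpin1 in BPA250 against control was 0.02 as reported and -0.14 (slide fixed), -0.11 (slide random), -0.03 (no slide 3), -0.03 (without 6 arrays) and -0.42 to 0.41 without 1 array. Lpin1 in BPA250 against BPA25 was 0.04 as reported and -0.09 (slide fixed), -0.08 (slide random), -0.04 (no slide 3), -0.04 (without 6 arrays) and -0.43 to 0.43 without 1 array. Lpin1 in genistein added to BPA25 was 0.01 as reported and -0.14 (slide fixed), -0.12 (slide random), -0.13 (without 6 arrays) and -0.47 to 0.52 without 1 array. Lpin1 in I3C added to BPA25 was 0.00 as reported and 0.03 (normexp), 0.33 (quantile scaling), 0.08 (the authors' values), 0.10 (scan day) and -0.48 to 0.20 without 1 array. Lpin1 in I3C added to BPA250 was 0.49 as reported and -0.01 (normexp), -0.10 (the authors' values). Lpin1 in I3C effect, BPA250 minus BPA25 was 0.49 as reported and -0.05 (normexp), -0.18 (the authors' values). Lpin1 in BPA25+genistein against control was -0.01 as reported and 0.13 (normexp), 0.06 (the authors' values), 0.22 (scan day), 0.06 (no slide 3) and -0.45 to 0.50 without 1 array. Lpin1 in BPA25+I3C against control was -0.02 as reported and 0.14 (normexp), 0.29 (quantile scaling), 0.13 (the authors' values), 0.02 (scan day) and -0.46 to 0.12 without 1 array. Dgat1 in BPA25 against control was 0.06 as reported and -0.33 (normexp), -0.03 (the authors' values), -0.07 (scan day) and -0.35 to 0.43 without 1 array. Dgat1 in BPA250 against control was 0.03 as reported and -0.22 (normexp), -0.04 (slide fixed), -0.03 (slide random) and -0.37 to 0.47 without 1 array. Dgat1 in BPA250 against BPA25 was -0.03 as reported and 0.11 (normexp), 0.11 (quantile scaling), 0.16 (the authors' values), 0.24 (scan day), 0.04 (no slide 3), 0.04 (without 6 arrays) and -0.40 to 0.41 without 1 array. Dgat1 in genistein added to BPA250 was -0.20 as reported and -0.64 to 0.07 without 1 array. Dgat1 in I3C added to BPA25 was 0.29 as reported and -0.27 (slide fixed), -0.14 (slide random), -0.09 (no slide 3), -0.09 (without 6 arrays) and -0.09 to 0.42 without 1 array. Dgat1 in genistein effect, BPA250 minus BPA25 was 0.48 as reported and -0.19 (without 6 arrays). Dgat1 in I3C effect, BPA250 minus BPA25 was 0.43 as reported and 0.00 to 0.81 without 1 array. Dgat1 in BPA250+genistein against control was -0.17 as reported and -0.57 to 0.10 without 1 array. Dgat1 in BPA25+I3C against control was 0.35 as reported and -0.22 (slide fixed), -0.10 (slide random), -0.05 (no slide 3), -0.05 (without 6 arrays) and -0.05 to 0.51 without 1 array. Dgat2 in BPA25 against control was 0.10 as reported and -0.13 (normexp) and -0.14 to 0.60 without 1 array. Dgat2 in BPA250 against control was -0.10 as reported and 0.48 (quantile scaling), 0.51 (the authors' values), 0.31 (outliers kept), 1.38 (slide fixed), 0.13 (slide random), 0.64 (scan day), 0.79 (no slide 3), 0.34 (the replicate block), 0.79 (without 6 arrays) and -0.74 to 0.79 without 1 array. Dgat2 in BPA250 against BPA25 was -0.20 as reported and 0.04 (the authors' values), 0.56 (slide fixed), 0.25 (scan day), 0.19 (no slide 3), 0.19 (without 6 arrays) and -0.84 to 0.69 without 1 array. Dgat2 in genistein added to BPA25 was -0.63 as reported and 0.00 (slide fixed), 0.03 (scan day) and -1.13 to 0.05 without 1 array. Dgat2 in I3C added to BPA25 was 0.03 as reported and -0.31 (quantile scaling), -0.26 (the authors' values), -0.59 (slide fixed), -0.50 (slide random), -0.47 (no slide 3), -0.47 (without 6 arrays) and -0.47 to 0.22 without 1 array. Dgat2 in I3C added to BPA250 was 0.90 as reported and -0.34 (slide fixed), 0.00 (no slide 3), 0.00 (without 6 arrays) and 0.00 to 1.53 without 1 array. Dgat2 in genistein effect, BPA250 minus BPA25 was -0.01 as reported and -0.91 to 0.62 without 1 array. Dgat2 in I3C effect, BPA250 minus BPA25 was 0.87 as reported and -0.03 to 1.5 without 1 array. Dgat2 in BPA25+genistein against control was -0.53 as reported and 0.26 (the authors' values), 0.04 (outliers kept), 0.83 (slide fixed), 0.41 (scan day), 0.16 (no slide 3), 0.16 (without 6 arrays) and -0.78 to 0.16 without 1 array. Dgat2 in BPA25+I3C against control was 0.13 as reported and -0.35 (slide random) and -0.11 to 0.28 without 1 array. Pnpla2 in BPA25 against control was 0.24 as reported and -0.18 (normexp) and -0.11 to 0.54 without 1 array. Pnpla2 in BPA250 against control was -0.11 as reported and 0.14 (scan day) and -0.46 to 0.33 without 1 array. Pnpla2 in BPA250 against BPA25 was -0.35 as reported and -0.65 to 0.09 without 1 array. Pnpla2 in genistein added to BPA25 was -0.34 as reported and -0.75 to 0.14 without 1 array. Pnpla2 in genistein added to BPA250 was 0.48 as reported and -0.13 (without 6 arrays). Pnpla2 in I3C added to BPA25 was -0.13 as reported and 0.26 (normexp) and -0.42 to 0.15 without 1 array. Pnpla2 in BPA25+genistein against control was -0.10 as reported and 0.15 (scan day), 0.03 (no slide 3) and -0.51 to 0.38 without 1 array. Pnpla2 in BPA250+genistein against control was 0.37 as reported and 0.00 (normexp), -0.15 (without 6 arrays). Pnpla2 in BPA25+I3C against control was 0.11 as reported and -0.13 (quantile scaling), -0.14 (the authors' values), -0.24 (no slide 3), -0.24 (without 6 arrays) and -0.24 to 0.28 without 1 array. Pnpla3 in genistein effect, BPA250 minus BPA25 was 0.04 as reported and -0.20 (quantile scaling), -0.46 (slide fixed), -0.32 (slide random), -0.16 (scan day) and -0.44 to 0.90 without 1 array. Pnpla3 in BPA250+genistein against control was -0.60 as reported and -1.08 to 0.27 without 1 array.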
